A study of Mus musculus with 36 samples.

Results

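The TGF-beta signalling pathway was followed through 10 genes, picked by name for their parts in it: the ligand gene *Tgfb1*, the receptor genes *Tgfbr1* and *Tgfbr2*, the signal transducers *Smad2*, *Smad3* and *Smad4*, the inhibitors *Smad7*, *Ski* and *Skil*, and the target gene *Tgfbi*. They are 10 of the 24781 gene rows of the deposited table, and each name has 1 row. Their levels are given in 36 libraries of sorted tumour cells, 18 of tumour-associated macrophages (TAMs) and 18 of CD8+ T cells.

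TGF-beta is a cytokine that cells secrete in a latent form, and proteases or integrins release it outside the cell. The free ligand brings a type II and a type I receptor kinase together, the receptors phosphorylate SMAD2 and SMAD3, and these enter the nucleus with SMAD4 to turn genes on or off. In tumours the pathway is known for restraining T cells and for shaping macrophages and the matrix around them.

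The study asked how B cells, and the GABA that they release, act on immune cells in tumours. All mice carried tumours of MC38, a mouse colon adenocarcinoma line, and cells were sorted on day 7 after inoculation. The WT group has the genotype WT and no treatment in the labels, the *muMt*-/- group has the genotype *muMt*-/- (mice that lack mature B cells) and no treatment in the labels, and the GABA group has the genotype *muMt*-/- and an implanted pellet that releases GABA. The paper's methods describe placebo pellets as the control and place the *muMt*-/- mice on the C57BL/6J background. Its reporting summary gives WT mice as C57BL/6J or C57BL/6N. Untreated here means without GABA. By the methods, mice compared were littermates or matched for age and sex. Mice aged 2 to 5 months were used over all experiments, and the age and sex of these groups are not given in the sources used here.

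Each library holds the RNA of 100 cells from 1 mouse, and each of the 6 groups has 6 libraries. In this assay each RNA molecule gets a barcode near its 3′ end before amplification, so that molecules are counted and not their copies. The lowest, median and highest number of molecules per library was 206394, 242756 and 304100 in WT TAMs, 100254, 149960 and 253608 in *muMt*-/- TAMs and 151856, 192775 and 262606 in GABA-treated *muMt*-/- TAMs. In CD8+ T cells it was 22896, 42065.5 and 76898 in WT mice, 51064, 67121.5 and 77839 in *muMt*-/- mice and 65356, 80283 and 98015 in GABA-treated *muMt*-/- mice. The libraries of *muMt*-/- TAMs and of WT CD8+ T cells were thus the shallower ones of their cell types. Levels of the 10 genes and of other pathway genes within a cell type are normalized molecules, meaning counts divided by DESeq2 size factors over its 18 libraries. Markers of cell types and nuclear RNA are given on another scale, with size factors over all 36 libraries, so their levels and sums do not share a scale with the gene levels beside them. As molecules are counted at the 3′ end and not per length, levels are compared between samples and not between genes.

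The sorted cells carried the markers of their labels. The macrophage marker *Adgre1*, which encodes the F4/80 used for sorting, had a lowest, median and highest level of 19.9, 31.3 and 42.1 in WT TAMs and was at 0 in all 6 libraries of WT CD8+ T cells. *Cd8a* had 39.8, 70.0 and 95.8 in WT CD8+ T cells, and its highest level in any TAM group was 0.979. *Cd3e* stayed at or under 0.844 in TAMs. The summed level of 12 T cell markers in single TAM libraries was at most 1.05% of its mean in WT CD8+ T cells. In the other direction the sum of 15 macrophage markers in CD8+ T cells was, as lowest, median and highest percent of its mean in WT TAMs, 0%, 1.09% and 6.38% in WT mice, 3.08%, 4.99% and 30.9% in *muMt*-/- mice and 0.747%, 7.37% and 18.3% in GABA-treated *muMt*-/- mice. RNA of macrophage markers was thus present in most CD8+ T cell libraries, at levels that differed between groups and mice.

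In TAMs, 1 of the 10 genes was called between mice with and without B cells. *Skil*, which encodes SnoN, a protein that binds SMAD complexes and holds their transcription down, rose 1.82-fold in *muMt*-/- TAMs over WT TAMs. With depth as a covariate the call was lost (adjusted p = 0.257), and nuclear RNA, described with *Skil* below, was higher in the same libraries by 0.85 on the log2 scale (exact permutation p = 0.00216). All 10 genes had a mean above 1 normalized molecule over the 18 TAM libraries, the minimum for testing, and of the 9469 genes tested 194 (2.05%) had an adjusted p under 0.05, the threshold for a call. At an unadjusted p under 0.05 it was 3 of the 10 and 1408 of all (14.9%), and DESeq2's Wald test with adjusted p called 1 of the 10, *Skil*, and 282 of all (2.98%). Of the 10 genes, 6 had a log2 fold change above 0, and their median was 0.06, beside -0.05 over all genes tested. In bulk libraries such as these, fewer cells of a type that makes an RNA and less of that RNA per cell cannot be told apart.

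In the 2 comparisons that ask about GABA in TAMs edgeR called none of the 10 genes, and DESeq2 called 1 in the first of them. Between GABA-treated and untreated *muMt*-/- TAMs, edgeR's quasi-likelihood test called 0 of the 10 genes and 2 of 9469 (0.0211%). At an unadjusted p under 0.05 it was 3 of the 10 and 801 of all (8.46%), and DESeq2's Wald test with adjusted p called 1 of the 10, *Skil*, and 62 of all (0.655%). The median log2 fold change of the 10 genes was 0.05, with 6 above 0, beside 0.06 over all genes. Between GABA-treated *muMt*-/- and WT TAMs, edgeR called 0 of the 10 genes and 7 of all (0.0739%), at an unadjusted p under 0.05 it was 1 of the 10 and 665 of all (7.02%), and DESeq2 called 0 of the 10 and 13 of all (0.137%). Here the median was 0.05, with 6 above 0, beside 0.02 over all genes. The 3 comparisons of a cell type share libraries with each other, so their values stand side by side and are not independent.

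In CD8+ T cells neither edgeR nor DESeq2's test with adjusted p called any of the 10 genes with the filter used here. Without a filter edgeR called *Tgfbi* between *muMt*-/- and WT mice (1 of the 10 and 72 of 13109, 0.549%) and for the GABA group against WT mice (1 of the 10 and 64 of 13109, 0.488%). All 10 passed the same minimum there, although *Tgfbr1* had 2 molecules in the 6 WT libraries together, and 6663 genes were tested. Between *muMt*-/- and WT mice, edgeR called 0 of the 10 genes and 0 of all (0.0%), 0 of the 10 and 411 of all (6.17%) had an unadjusted p under 0.05, and DESeq2 called 0 of the 10 and 0 of all (0.0%). Between GABA-treated and untreated *muMt*-/- mice the counts were 0 of the 10 and 0 of all by edgeR (0.0%), 3 of the 10 and 247 of all at an unadjusted p under 0.05 (3.71%), and 0 of the 10 and 0 of all by DESeq2 (0.0%). Between GABA-treated *muMt*-/- and WT mice they were 0 of the 10 and 0 of all by edgeR (0.0%), 2 of the 10 and 459 of all at an unadjusted p under 0.05 (6.89%), and 0 of the 10 and 1 of all by DESeq2 (0.015%). The median log2 fold changes of the 10 genes were 0.12, -0.31 and -0.12 in these 3 comparisons, with 8, 2 and 4 genes above 0, beside 0.15, 0.03 and 0.21 over all genes. The median over all genes moved with the scaling: with DESeq2 size factors in edgeR it was 0.06 for *muMt*-/- against WT mice and 0.06 for the GABA group against WT mice.

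*Tgfb1* encodes TGF-beta 1, the ligand. In TAMs its lowest, median and highest levels were 13.2, 17.2 and 23.3 in WT mice, 15.1, 23.1 and 31.1 in *muMt*-/- mice and 13.3, 19.6 and 22.2 in GABA-treated *muMt*-/- mice. The groups overlap, with 3 of the 6 *muMt*-/- libraries above all WT libraries. Between *muMt*-/- and WT TAMs the log2 difference was 0.42 (SE 0.20, n = 6 and 6, adjusted p = 0.333, range 0.175 to 0.685 over the alternatives), and a two-sided exact permutation test gave p = 0.0563. The level thus did not pass the test after correction.

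Among the T cell libraries the *Tgfb1* levels were 2.06, 5.07 and 12 in WT mice, 5.20, 6.97 and 13.1 in *muMt*-/- mice and 2.48, 3.80 and 7.03 in GABA-treated *muMt*-/- mice. The untreated *muMt*-/- libraries were the high ones, and 5 of the 6 GABA libraries lay below all of them. The log2 difference between GABA-treated and untreated *muMt*-/- mice was -0.92 (SE 0.36, exact permutation p = 0.0152) and failed the correction over all genes (adjusted p = 0.999, range 0.781 to 1). The same contrast in TAMs was -0.33, and the test of the difference between the cell types gave 0.60 (SE 0.40, adjusted p = 0.994).

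*Tgfbr2* encodes the type II receptor, which binds the ligand first. Its levels in TAMs were 17.6, 22.9 and 27.6 in WT mice, 9.42, 12.8 and 19.9 in *muMt*-/- mice and 9.29, 18.2 and 25.2 in GABA-treated *muMt*-/- mice. The *muMt*-/- libraries were low, 5 of 6 of them below every WT library, while the GABA libraries spread over both groups. The log2 difference between *muMt*-/- and WT TAMs was -0.76 (SE 0.24, exact permutation p = 0.00649), and its adjusted p of 0.0812 missed the threshold. The adjusted p ranged from 0.0400 to 0.579 over the alternatives. It was under 0.05 with the replicate number as a block (replicate block, log2 -0.78, adjusted p = 0.0479), with either other filter, and in the fit to 12 libraries. With depth as a covariate the log2 difference was -0.56 (adjusted p = 0.579), the top of that range. The *muMt*-/- TAM libraries were the shallower ones, and RNAs that moved in the same contrast are given with *Skil*. Between GABA-treated and untreated *muMt*-/- TAMs the log2 difference was 0.51 (SE 0.25, adjusted p = 0.581, range 0.268 to 0.801, exact permutation p = 0.152).

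The T cells had *Tgfbr2* levels of 2.21, 5.68 and 9.17 in WT mice, 4.09, 5.40 and 8.38 in *muMt*-/- mice and 2.74, 5.34 and 8.67 in GABA-treated *muMt*-/- mice, and the 3 groups overlap throughout. The *muMt*-/- to WT difference in TAMs minus that in CD8+ T cells was -1.0 on the log2 scale (SE 0.45, adjusted p = 0.437, range 0.382 to 0.817). *Tgfbr1*, which encodes the type I receptor kinase, had levels of 25.4, 30.6 and 42.4 in WT TAMs, 22.7, 30.2 and 48.2 in *muMt*-/- TAMs and 23.8, 27.8 and 36.1 in GABA-treated *muMt*-/- TAMs. Those 3 groups overlap, and no contrast between them had an unadjusted p under 0.05. For T cells the *Tgfbr1* levels were 0, 0 and 1.83 in WT mice, 0, 1.39 and 3.81 in *muMt*-/- mice and 0, 1.25 and 3.10 in GABA-treated *muMt*-/- mice. They rest on 2, 13 and 12 molecules in the 6 libraries of a group. The ratio of *muMt*-/- to WT mice by these molecules was 4.28 with a 95% counting interval from 0.970 to 39.1, so that a difference was not detectable at this depth.

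*Smad2* and *Smad3* encode the receptor-activated SMADs, and both were measured at a few molecules per library. Over all 18 TAM libraries *Smad2* lay between 2.37 and 9.44 and *Smad3* between 0 and 5.03, and neither had an unadjusted p under 0.05 by edgeR in any TAM contrast. *Smad3* levels in TAMs were 1.26, 2.47 and 3.16 in WT mice, 0, 1.09 and 1.84 in *muMt*-/- mice and 0, 2.44 and 5.03 in GABA-treated *muMt*-/- mice. The *muMt*-/- libraries were low, with 3 of 6 below all WT libraries and all 6 below the WT median. Here the tests disagree: the log2 difference from WT was -1.15 (SE 0.69, adjusted p = 0.452) and the exact permutation p 0.0195, on 5 molecules against 18, and RNAs that moved in the same contrast are given with *Skil*. *Smad3* levels in CD8+ T cells were 0, 0.947 and 3.67 in WT mice, 0, 0.790 and 1.12 in *muMt*-/- mice and 0.620, 2.12 and 3.72 in GABA-treated *muMt*-/- mice. The GABA libraries were the high ones, with 5 of 6 above all untreated *muMt*-/- libraries. Their log2 difference from untreated *muMt*-/- mice was 1.56 (SE 0.64, exact permutation p = 0.0130), with an adjusted p of 0.999 (range 0.781 to 1), and it rests on 19 molecules against 5. *Smad2* lay between 0 and 3.0 in CD8+ T cells.

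*Smad4* encodes the partner that SMAD2 and SMAD3 share. In TAMs its levels were 8.0, 11.7 and 18.8 in WT mice, 5.65, 18.5 and 21.9 in *muMt*-/- mice and 12.8, 18.2 and 22.6 in GABA-treated *muMt*-/- mice. WT mice had the lowest median, and 3 of the 6 GABA libraries lay above all WT libraries. The log2 difference between GABA-treated *muMt*-/- and WT TAMs was 0.53 (SE 0.24, adjusted p = 0.670, range 0.501 to 0.821, exact permutation p = 0.0346). The sum of the macrophage markers (15 of 15 detected, *Apoe* the most abundant) was 1352, 1627 and 1789 in WT TAMs, 1295, 1381 and 1666 in *muMt*-/- TAMs and 1035, 1424 and 1523 with GABA. With GABA it differed from WT by -0.25 on the log2 scale (exact permutation p = 0.0476), the monocyte markers, whose sums are given with *Skil*, by 0.45 (exact permutation p = 0.00433) and the dendritic cell markers by 1.04 (exact permutation p = 0.00866), and their part in the *Smad4* level was not tested.

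The T cells had *Smad4* levels of 0, 5.41 and 8.0 in WT mice, 2.24, 4.33 and 11.1 in *muMt*-/- mice and 0.914, 2.41 and 3.15 in GABA-treated *muMt*-/- mice. The GABA libraries were low, but they overlap both other groups. Against untreated *muMt*-/- mice the log2 difference was -1.04 (SE 0.44, adjusted p = 0.999, range 0.781 to 1, exact permutation p = 0.0260). Against WT mice it was -1.0 (SE 0.47, adjusted p = 0.679, range 0.644 to 1, exact permutation p = 0.240). The GABA contrast of *Smad4* was 1.09 higher in TAMs than in CD8+ T cells on the log2 scale (SE 0.49, adjusted p = 0.994, range 0.872 to 1), which did not pass the correction.

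Leaving the alternatives aside, *Skil* carried the only call that edgeR made among the 10 genes within a cell type. Under some alternatives edgeR also called *Tgfbr2* in TAMs or *Tgfbi* in CD8+ T cells, as given above. The lowest, median and highest levels of *Skil* in TAMs were 29.0, 41.6 and 45.1 in WT mice, 54.8, 71.1 and 106 in *muMt*-/- mice and 41.6, 46.2 and 65.1 in GABA-treated *muMt*-/- mice. All 6 *muMt*-/- libraries lay above all 6 WT libraries, and the GABA libraries lay between, overlapping both groups. *Skil* (GRCm38 chr3:31095058-31122923) rose in *muMt*-/- TAMs by 0.86 on the log2 scale (SE 0.17, adjusted p = 0.00362, range 8.31e-05 to 0.257 over the alternatives), and the exact permutation p was 0.00216, the smallest that 6 against 6 can give. With the replicate block the log2 fold change was 0.85 (adjusted p = 0.00558). With depth (log2 of the total per library) as a covariate it was 0.62 (SE 0.21, unadjusted p = 0.00441) and the call was lost (adjusted p = 0.257). The *muMt*-/- TAM libraries were also the shallower ones, with 2 of 6 inside the WT range of molecules and 4 below it.

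Between GABA-treated and untreated *muMt*-/- TAMs the log2 difference of *Skil* was -0.54 (SE 0.17, adjusted p = 0.282, exact permutation p = 0.0108), with 4 of 6 GABA libraries below all untreated ones. DESeq2 gave this contrast an adjusted p of 0.0312, the lowest of a range up to 0.636. Between GABA-treated *muMt*-/- and WT TAMs the log2 difference was 0.32 (SE 0.17, adjusted p = 0.732, exact permutation p = 0.0433). Levels of *Skil* in CD8+ T cells were 8.25, 11.9 and 14.4 in WT mice, 7.62, 11.1 and 13.1 in *muMt*-/- mice and 2.48, 7.06 and 17.3 in GABA-treated *muMt*-/- mice, and the groups overlap. The *muMt*-/- to WT difference of *Skil* was 0.03 there, and the difference between the cell types was 0.81 (SE 0.37, adjusted p = 0.439, range 0.0909 to 0.772), so the rise was not shown to differ between TAMs and CD8+ T cells.

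**Figure D1:**
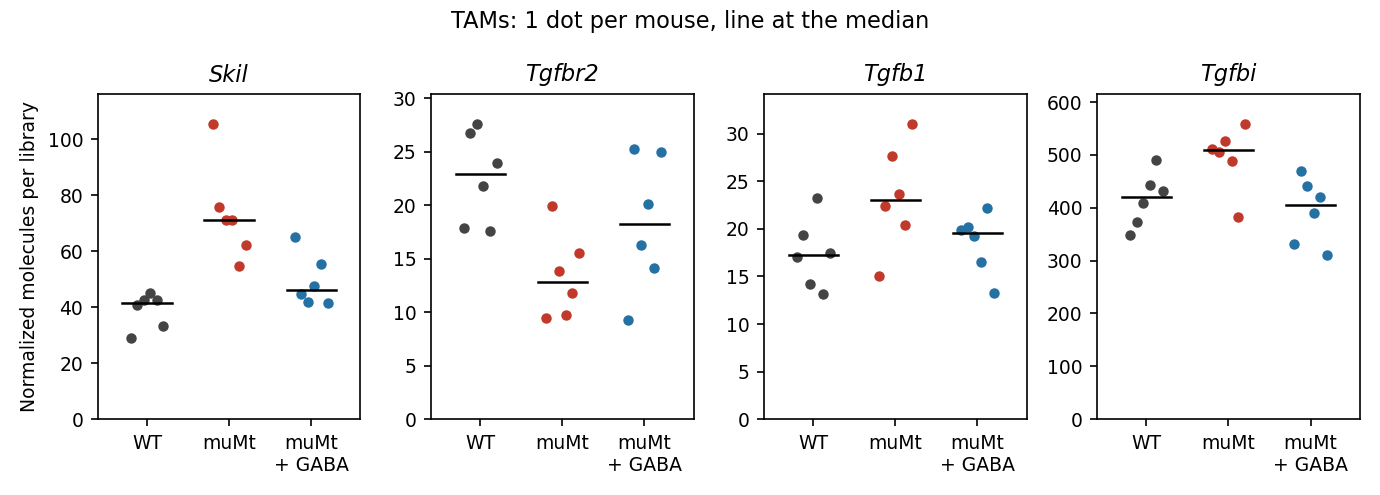
Normalized molecules of *Skil*, *Tgfbr2*, *Tgfb1* and *Tgfbi* in each of the 18 TAM libraries, by group. Each point is 1 library (1 mouse), and the 6 *Skil* values of *muMt*-/- TAMs lie above all 6 of WT TAMs.

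Other RNAs moved with *Skil* in *muMt*-/- TAMs. The sum of the monocyte markers, of which 7 of 7 were detected, was 166, 186 and 231 in WT TAMs, 185, 379 and 428 in *muMt*-/- TAMs and 220.2, 263 and 293 in GABA-treated *muMt*-/- TAMs, with *Ccr2* the most abundant. It was 0.79 higher in *muMt*-/- than in WT TAMs on the log2 scale (exact permutation p = 0.00866). Dendritic cell markers (5 of 7 detected in *muMt*-/- TAMs, *Ccr7* the most abundant, *Zbtb46* and *Cd209a* at 0) were 0.425, 0.695 and 1.5 in WT TAMs, 0.921, 3.20 and 8.84 in *muMt*-/- TAMs and 0.767, 2.29 and 6.54 with GABA, and 1.22 higher in *muMt*-/- than in WT TAMs (exact permutation p = 0.00649). The macrophage markers, whose sums are given with *Smad4*, differed by -0.17 (exact permutation p = 0.0823), and with size factors over the 18 TAM libraries by -0.21 (exact permutation p = 0.0325).

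Of 7 epithelial markers, *Cdh1* was detected in *muMt*-/- TAMs and the other 6, *Epcam*, *Krt8*, *Krt18*, *Krt19*, *Krt20* and *Cldn7*, were at 0. The sum was 3.85, 5.0 and 5.61 in WT TAMs, 6.66, 9.30 and 20.3 in *muMt*-/- TAMs and 3.07, 6.31 and 12.3 with GABA (log2 difference of *muMt*-/- from WT 0.98, exact permutation p = 0.00216). RNAs kept in the nucleus (4 of 5 detected, *Malat1* the most abundant, *Xist* at 0) summed to 341, 404 and 418 in WT TAMs, 532, 670.2 and 1287 in *muMt*-/- TAMs and 384, 428 and 622 with GABA. They were high in *muMt*-/- TAMs, where no library overlaps WT (log2 difference 0.85, exact permutation p = 0.00216), and lower again with GABA (-0.66, exact permutation p = 0.00649). The part of these RNAs and of depth in the *Skil* and *Tgfbr2* levels was not tested beyond the fit with depth as a covariate.

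*Smad7* encodes the inhibitory SMAD that blocks the type I receptor, and *Ski* a co-repressor related to SnoN. Neither had an unadjusted p under 0.05, by edgeR or by exact permutation, in any contrast within a cell type. *Smad7* lay at 11.6, 14.0 and 18.2 in WT TAMs, 3.11, 15.1 and 28.3 in *muMt*-/- TAMs and 6.41, 14.4 and 38.5 with GABA, so that both *muMt*-/- groups spread around the WT libraries. *Ski* lay at 35.8, 44.9 and 46.5, 33.7, 40.3 and 50.9 and 30.2, 39.5 and 54.4 in the same groups, which overlap. In CD8+ T cells the medians in WT, *muMt*-/- and GABA-treated *muMt*-/- mice were 11.7, 12.4 and 8.24 for *Smad7* and 6.07, 6.23 and 4.71 for *Ski*, with overlap between all groups.

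*Tgfbi* encodes a secreted matrix protein that takes its name from induction by TGF-beta. In TAMs its levels were 349, 421 and 491 in WT mice, 383, 509 and 559 in *muMt*-/- mice and 310.0, 405 and 469 in GABA-treated *muMt*-/- mice. The untreated *muMt*-/- libraries were high and the 3 groups overlap. Against WT TAMs their log2 difference was 0.22 (SE 0.14, adjusted p = 0.480, exact permutation p = 0.0411). Between GABA-treated and untreated *muMt*-/- TAMs the log2 difference was -0.30 (SE 0.14, adjusted p = 0.570, range 0.0976 to 0.790, exact permutation p = 0.0260). The RNAs given with *Skil* moved in the first of these contrasts and nuclear RNA in the second, and their part was not tested.

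The CD8+ T cell libraries had *Tgfbi* levels of 0, 4.13 and 34.3 in WT mice, 4.49, 16.4 and 94.1 in *muMt*-/- mice and 0, 26.1 and 64.8 in GABA-treated *muMt*-/- mice. WT mice were low, with 3 of 6 libraries at 0, and the groups overlap. The log2 difference of untreated *muMt*-/- from WT mice was 1.46 (SE 0.72, adjusted p = 0.806, range 0.000450 to 1, exact permutation p = 0.0887). Without replicate 5 of the WT T cells it was 2.57, and without replicate 1 of the *muMt*-/- T cells 0.59. Against WT mice, the GABA group had a log2 difference of 1.54 (SE 0.71, adjusted p = 0.671, range 0.000140 to 1, exact permutation p = 0.260). Without replicate 5 of the WT T cells it was 2.67, and without replicate 1 of the GABA-treated T cells 0.97. The lowest adjusted p of each contrast is that of the fit without a filter. Macrophage markers moved with both. Their sum in CD8+ T cells was 0, 17.5 and 102 in WT mice (13 of 15 detected, *Adgre1* and *Mrc1* at 0, *Cd14* the most abundant), 49.4, 80.1 and 495 in *muMt*-/- mice (15 of 15, *Cd14* the most abundant) and 12, 118 and 293 with GABA (15 of 15, *Itgam* the most abundant). It was 2.89 higher in *muMt*-/- than in WT mice on the log2 scale (exact permutation p = 0.0130) and 2.54 higher with GABA than in WT mice (exact permutation p = 0.0541). Nuclear RNA differed by -0.46 between the GABA group and WT mice (4 of 5 detected, *Malat1* the most abundant, *Xist* at 0, exact permutation p = 0.0325), also a contrast of *Smad4*, and its part in either gene was not tested.

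Over the 18 libraries of CD8+ T cells, *Tgfbi* followed the macrophage markers. On log2 levels with a pseudocount of 1, both with size factors over these 18 libraries, Pearson's r was 0.886 and Spearman's rho 0.920, each with a permutation p of 1e-05, the smallest possible with 100000 permutations (20 relations, adjusted p = 1e-04). Without the 2 libraries farthest from the median of the marker sum r was 0.879, and within groups, with group means subtracted, it was also 0.879. The library with the highest *Tgfbi*, replicate 1 of the *muMt*-/- group, is the one with macrophage markers at 30.9% of their mean in WT TAMs. Among the other 9 genes none had an adjusted p under 0.05 in this relation by permutation, and the strongest was *Tgfbr1* (rho 0.486, adjusted permutation p = 0.279). How much of the *Tgfbi* in CD8+ T cell libraries came from macrophage RNA was not tested.

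**Figure D2:**
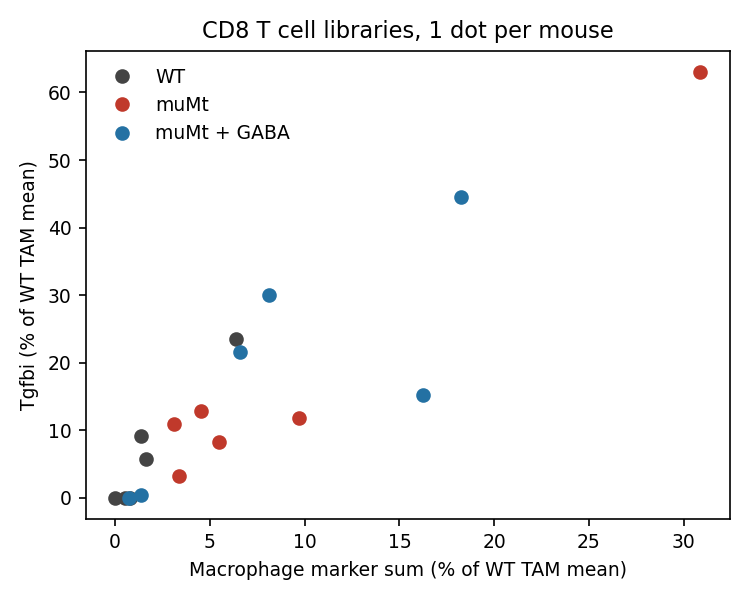
Level of *Tgfbi* in each of the 18 CD8+ T cell libraries against the summed level of 15 macrophage markers in it, both as percent of their mean in WT TAMs. Each point is 1 library (1 mouse), and *Tgfbi* is high where the macrophage markers are high (Pearson's r 0.886 on log2 levels with size factors over the 18 libraries).

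**Figure D3:**
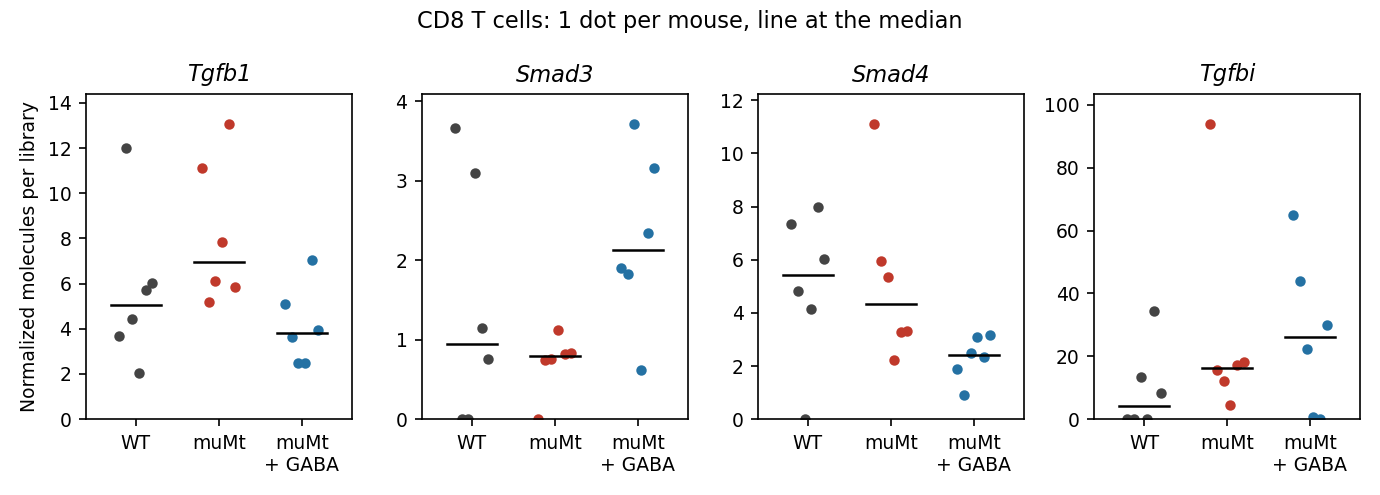
Normalized molecules of *Tgfb1*, *Smad3*, *Smad4* and *Tgfbi* in each of the 18 libraries of CD8+ T cells, by group. Each point is 1 library (1 mouse), and the groups overlap for each of these genes.

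TAMs and CD8+ T cells were compared within each group to ask which of the cells hold which parts of the pathway, with size factors over all 36 libraries and 8477 genes tested. In WT mice 4 of the 10 genes were called, against 1928 of all genes (22.7%). In *muMt*-/- mice it was 5 of the 10 and 1810 of all (21.4%), and in GABA-treated *muMt*-/- mice 5 of the 10 and 1869 of all (22.0%). The median log2 difference of the 10 genes was 0.39, 0.29 and 1.06, with 7, 7 and 8 above 0, beside 0.36, 0.10 and 0.12 over all genes. With DESeq2 size factors in edgeR the median of all genes was 0.20, 0.13 and 0.16, and with total molecules only 0.04, -0.13 and -0.02, so that differences of this size depend on the scaling.

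The type I receptor and the target gene lay on the side of the macrophages. On the scale of all 36 libraries *Tgfbr1* had 14.9, 18.1 and 24.5 in WT TAMs and 0, 0 and 3.19 in WT CD8+ T cells, with all 6 TAM libraries above all 6 T cell libraries. It was higher in TAMs by 4.59 on the log2 scale in WT mice (SE 0.59, adjusted p = 1.01e-08, range 2.72e-14 to 2.51e-06), by 2.57 in *muMt*-/- mice and by 2.74 with GABA. Without replicate 1 of the WT T cells the first value was 5.24. As the WT T cells had 2 molecules, the ratio by molecules was 24.6 with a 95% counting interval from 6.74 to 204. *Tgfbi* was higher in TAMs by 3.99, 2.73 and 2.31 in WT, *muMt*-/- and GABA-treated *muMt*-/- mice (adjusted p = 6.74e-08, 8.30e-06 and 8.59e-05), with 6 of 6 TAM libraries above all T cell libraries each time. The value was 5.11 in WT mice without replicate 5 of their T cells and 3.57 in *muMt*-/- mice without replicate 1 of their T cells. The T cell libraries hold macrophage RNA in differing amounts, as given above, and its part in these values was not tested.

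Among the inhibitors the direction differed by gene. *Ski* was higher in TAMs by 1.52, 1.14 and 1.39 (adjusted p = 0.000299, 0.00295 and 0.000187). *Smad7* was lower in TAMs, with 6.85, 8.19 and 10.4 in WT TAMs against 15.1, 19.9 and 32.0 in WT T cells and no overlap, and log2 differences of -1.18, -1.14 and -0.68 in WT, *muMt*-/- and GABA-treated *muMt*-/- mice. The first 2 passed the test (adjusted p = 0.00398 and 0.00451) and the last did not (adjusted p = 0.0987). Without replicate 1 of the GABA-treated TAMs that last value was -1.07 (adjusted p = 0.00412). *Skil* differed by 0.43 in WT mice, which was not called (adjusted p = 0.271), and was higher in TAMs by 1.24 in *muMt*-/- mice and 1.12 with GABA (adjusted p = 6.07e-05 and 0.000480).

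With GABA *Smad4* was also higher in TAMs, by 1.31 (SE 0.36, adjusted p = 0.00433, range 0.00281 to 0.0160), with 6 of 6 TAM libraries above all T cell libraries. In WT and *muMt*-/- mice no fit that left out 1 library called it, with log2 differences of -0.41 to -0.08 and 0.02 to 0.46. In the GABA-treated mice *Tgfb1* (0.62, adjusted p = 0.128), *Smad2* (1.0, adjusted p = 0.134) and *Smad3* (-1.27, adjusted p = 0.0606) had log2 differences that failed the correction. For *Smad3* the value passed without replicate 5 or 6 of the GABA-treated TAMs (-1.52 and -1.58, adjusted p = 0.0328 and 0.0281) or without replicate 4 of the GABA-treated T cells (-1.48, adjusted p = 0.0313). The test of whether the *muMt*-/- to WT difference depends on the cell type called 0 of the 10 genes and 1 of 8477 by edgeR (0.0118%), 3 of the 10 and 853 of all at an unadjusted p under 0.05 (10.1%), and 0 of the 10 and 38 of all by DESeq2 (0.448%). Without a filter edgeR called 1 of the 10, *Tgfbi*, and 79 of 15593 (0.507%) in that test. The 3 genes at an unadjusted p under 0.05 were *Tgfbr2* and *Skil*, given above, and *Tgfbr1* (-2.02, SE 0.94, adjusted p = 0.447, with the 2 molecules of WT T cells in it, and -2.71 without replicate 1 of those). For the GABA contrast it was 0 of the 10 and 0 of all by edgeR (0.0%), 1 of the 10, *Smad4*, and 384 of all at an unadjusted p under 0.05 (4.53%), and 0 of the 10 and 0 of all by DESeq2 (0.0%). The median of the 10 genes was -0.26 and 0.36 in these tests, with 4 and 7 above 0, beside -0.30 and 0.01 over all genes, and with DESeq2 size factors the median of all genes was -0.11 and 0.02.

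**Figure D4:**
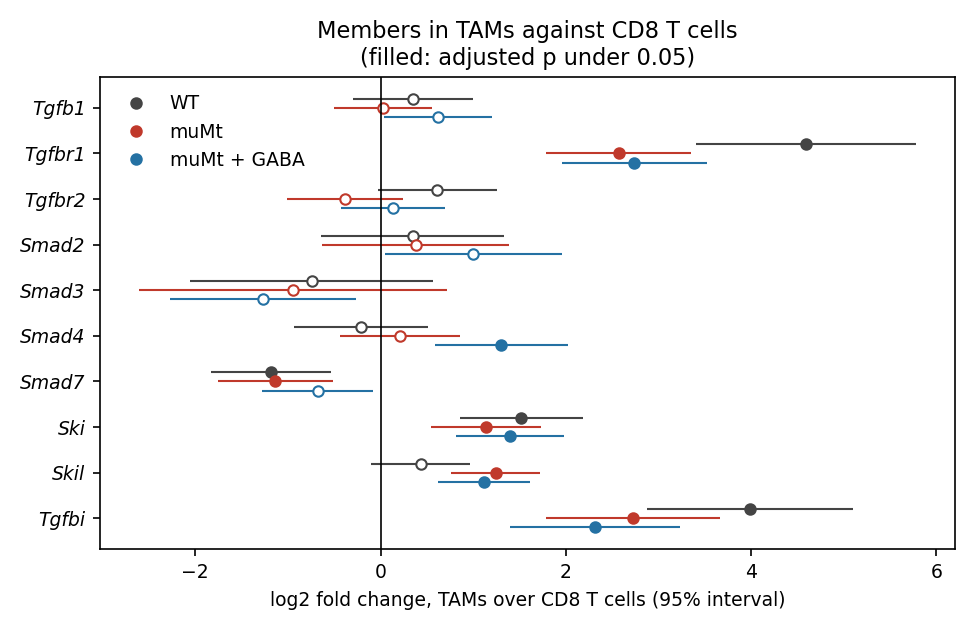
Log2 difference between TAMs and CD8+ T cells for each of the 10 genes in WT, *muMt*-/- and GABA-treated *muMt*-/- mice, with 95% confidence intervals from edgeR. *Tgfbr1*, *Tgfbi* and *Ski* lie above 0 in all 3 groups.

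The medians of the 6 groups, ordered from high to low, overlap with the next group for 8 of the 10 genes at every step. For *Tgfbr1* the order was WT, *muMt*-/- and GABA-treated TAMs, then *muMt*-/-, GABA-treated and WT CD8+ T cells, and for *Tgfbi* it was *muMt*-/-, WT and GABA-treated TAMs, then GABA-treated, *muMt*-/- and WT CD8+ T cells. For both, the step from TAMs to CD8+ T cells was the one without overlap. *Tgfb1* ran from *muMt*-/- TAMs down to GABA-treated CD8+ T cells, and *Tgfbr2* from WT TAMs down to *muMt*-/- TAMs with all 3 T cell groups between them. *Smad2* was highest in WT TAMs and lowest in GABA-treated CD8+ T cells, *Smad3* highest in GABA-treated CD8+ T cells and lowest in *muMt*-/- TAMs, and *Smad4* highest in *muMt*-/- TAMs and lowest in GABA-treated CD8+ T cells. *Smad7* was highest in *muMt*-/- CD8+ T cells and lowest in WT TAMs, *Ski* highest in WT TAMs and lowest in GABA-treated CD8+ T cells, and *Skil* highest in *muMt*-/- TAMs and lowest in GABA-treated CD8+ T cells.

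Beyond the 10 genes, 89 genes of the pathway in 6 lists were followed, of which 60 were tested in the fit to TAMs, 39 in the fit to CD8+ T cells and 53 in the separate fit to all 36 libraries. The lists were chosen with earlier results of these data known. Shares of their genes called, here and below, are thus no independent test against all genes. In *muMt*-/- TAMs 4 of 60 rose over WT and 0 fell, where 97 of all 9469 genes rose (1.02%) and 97 fell (1.02%). At an unadjusted p under 0.05 it was 11 of 60, beside 14.9% of all genes, and the median log2 fold change of the 60 was 0.00, beside -0.05 over all genes. *Thbs1*, which encodes thrombospondin 1, an activator of latent TGF-beta, had a lowest, median and highest level of 23.1, 37.2 and 53.7 in WT TAMs and 72.1, 102 and 273 in *muMt*-/- TAMs. It rose by 1.72 on the log2 scale (SE 0.27, adjusted p = 0.000367), and all 6 *muMt*-/- libraries lay above all WT libraries. With GABA its difference from untreated *muMt*-/- TAMs was -1.27 (adjusted p = 0.0570).

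Of a list of genes taken as induced by TGF-beta, 2 of 15 tested rose in *muMt*-/- TAMs, where 1.02% of all genes rose. Whether TGF-beta raises or lowers the genes of this list in these cells was not tested. *Fn1*, the gene of the matrix protein fibronectin, went from 185, 201 and 251 to 289, 343 and 399, a rise of 0.69 (SE 0.14, adjusted p = 0.00527). *Bhlhe40*, which encodes a transcriptional repressor, went from 5.54, 6.96 and 8.16 to 12.4, 16.6 and 22.6, a rise of 1.19 (SE 0.25, adjusted p = 0.00597). No *muMt*-/- library of either gene overlaps WT. In the list of activin and BMP ligands, 1 of 3 tested rose, against the same 1.02% of all: *Inhba*, which encodes the activin A subunit, went from 7.38, 18.7 and 36.4 to 28.6, 39.8 and 60.0, a rise of 1.03 (SE 0.24, adjusted p = 0.0153), with 5 of 6 *muMt*-/- libraries above all WT libraries. Receptors and co-receptors (0 of 8), SMADs and partners (0 of 10) and inhibitors and turnover (0 of 15) had no call there. The monocyte, dendritic cell, *Cdh1* and nuclear RNA values given for *Skil* moved with these 4 genes too, and their part was not tested.

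With GABA the log2 differences from untreated *muMt*-/- TAMs were -0.40 for *Fn1* (adjusted p = 0.344), -0.91 for *Bhlhe40* (adjusted p = 0.196) and -0.42 for *Inhba* (adjusted p = 0.645). Of the 60 genes edgeR called 0 in that contrast, 6 had an unadjusted p under 0.05, where 8.46% of all genes had, and the median was -0.10, beside 0.06 over all genes. Between GABA-treated *muMt*-/- and WT TAMs it called 0, 4 had an unadjusted p under 0.05 (7.02% of all), and the median was 0.08, beside 0.02. In CD8+ T cells edgeR called 0 of 39 in each contrast, and 8, 4 and 4 had an unadjusted p under 0.05 for *muMt*-/- against WT, GABA-treated against untreated *muMt*-/- and GABA-treated *muMt*-/- against WT, beside 6.17%, 3.71% and 6.89% of all genes. The medians were 0.57, -0.12 and 0.28, beside 0.15, 0.03 and 0.21 over all genes. The sum of the macrophage markers, given with *Tgfbi*, was 2.89 higher on the log2 scale in the first of these contrasts (exact permutation p = 0.0130), and its part in the values of the 39 genes was not tested.

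Between TAMs and CD8+ T cells of WT mice 13 of 53 list genes were higher in TAMs and 2 lower, beside 1420 of all 8477 genes higher (16.8%) and 508 lower (5.99%). Of the 6 genes of ligand handling tested, 3 were higher in TAMs: *Mmp14*, a membrane protease (3.57, adjusted p = 4.25e-09), *Nrros*, which holds latent TGF-beta on myeloid cells (2.63, adjusted p = 7.88e-07), and *Furin*, which cleaves the precursor (0.96, adjusted p = 0.0206). Also higher in TAMs, with a mean of at least 5, were the coactivator *Ep300* (1.23), the ubiquitin ligase *Rnf111* (1.54) and the feedback inhibitor *Pmepa1* (1.69). So were *Fn1* (3.27), *Vegfa* (2.23) and *Cdkn1a* (1.79) from the list of genes taken as induced. From the same list, *Bhlhe40* (-2.38, adjusted p = 9.30e-10) and *Id2* (-1.60, adjusted p = 1.33e-06) were lower in TAMs, with no overlap between the cell types. In *muMt*-/- mice 15 were higher and 3 lower, beside 13.6% and 7.71% of all genes, and in GABA-treated *muMt*-/- mice 12 and 2, beside 14.1% and 7.93%. Here the medians of the 53 genes were 0.77, 0.56 and 0.63, beside 0.36, 0.10 and 0.12 over all genes. The tests of the difference between cell types called 0 of the 53 by edgeR for either contrast, with 8 and 7 at an unadjusted p under 0.05, beside 10.1% and 4.53% of all.

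For *Tgfb1* in both cell types, *Tgfbi* in TAMs and *Tgfbr2* in CD8+ T cells, the genes most alike from mouse to mouse were sought. Over 18 TAM libraries, with group means subtracted, the 3 most like *Tgfb1* among 5307 genes were *Dnajb1* (r 0.817), *Cnnm4* (r 0.732) and *Rbck1* (r 0.724), and the 3 most like *Tgfbi* were *Slc43a2* (r 0.837), *Cybb* (r 0.812) and *Sirpb1b* (r 0.791). Over 18 libraries of CD8+ T cells, among 1882 genes, they were *Tmed9* (r 0.695), *Slc6a6* (r 0.682) and *Psenen* (r 0.681) for *Tgfb1* and *Ms4a4c* (r 0.797), *Mknk2* (r 0.769) and *Serf2* (r 0.714) for *Tgfbr2*. These values describe the closest of many genes and carry no test.

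The promoter windows of RefSeq (build GRCm38.p6, 250 bases before to 50 after a start) hold 7 windows for 6 of the genes, *Tgfb1*, *Tgfbr1* (2 starts), *Tgfbr2*, *Smad3*, *Ski* and *Tgfbi*, and none for *Smad2*, *Smad4*, *Smad7* and *Skil*. The short motif that SMAD3 and SMAD4 bind, CAGAC or its reverse complement GTCTG, occurs in 3 of the 7, and in 49.6% of all 32851 windows, so the share is near the background. The palindrome GTCTAGAC, which does not contain that motif, occurs in 0 of the 7 and in 0.213% of all windows. The 3 windows with a match, at the type I receptor, at the type II receptor and at the target gene, are shown with the motif in capitals. A match describes the letters and not a bound site. They lie at chr4:47385966-47386265 (plus strand, the second start of *Tgfbr1*), chr9:116175314-116175613 (minus strand, *Tgfbr2*) and chr13:56609336-56609635 (plus strand, *Tgfbi*).
Tgfbr1, second start: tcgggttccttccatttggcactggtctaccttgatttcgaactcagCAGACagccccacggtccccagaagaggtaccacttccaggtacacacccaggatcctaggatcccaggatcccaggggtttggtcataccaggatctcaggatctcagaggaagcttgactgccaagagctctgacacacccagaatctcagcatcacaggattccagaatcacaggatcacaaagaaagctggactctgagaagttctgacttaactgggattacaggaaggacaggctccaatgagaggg
Tgfbr2: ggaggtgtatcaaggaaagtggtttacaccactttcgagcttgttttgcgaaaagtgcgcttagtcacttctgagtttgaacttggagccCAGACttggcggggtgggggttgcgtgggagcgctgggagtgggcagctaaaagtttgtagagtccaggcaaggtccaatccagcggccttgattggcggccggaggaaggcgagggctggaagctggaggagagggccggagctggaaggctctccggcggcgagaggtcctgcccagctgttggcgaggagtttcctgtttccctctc
Tgfbi: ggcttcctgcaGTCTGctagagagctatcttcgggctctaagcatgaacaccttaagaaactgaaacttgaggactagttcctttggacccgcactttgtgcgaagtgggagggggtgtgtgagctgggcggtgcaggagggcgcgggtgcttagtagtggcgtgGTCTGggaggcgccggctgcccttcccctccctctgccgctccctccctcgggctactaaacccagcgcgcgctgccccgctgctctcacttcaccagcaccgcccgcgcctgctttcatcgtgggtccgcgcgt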

How the data were processed

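Digital RNA sequencing of 100 sorted cells per library was analysed in 36 libraries (6 per group). Reads were aligned by the authors to mm10 (STAR 2.5.4b), and they deposited the count of barcoded molecules per gene and library, which was used without further change. Totals per library are given with the samples.

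Levels are counts divided by DESeq2 1.42.0 size factors. Genes with a mean above 1 normalized molecule were tested with edgeR 4.0.16 in R 4.3.3 (quasi-likelihood F-test, TMM, 1 coefficient per group, Benjamini-Hochberg over all genes tested, threshold 0.05), in 1 fit per cell type (18 libraries) and 1 for both (36 libraries). The biological coefficient of variation was 0.195 in TAMs, 0.294 in CD8+ T cells and 0.223 in both, which sets the precision. Single genes and marker sums were also compared with two-sided exact permutation tests on log2 of the level plus 1, unadjusted. Correlations used 100000 permutations. These tests ran in scipy 1.17.1 (Python 3.11.15 with pandas 2.3.3, numpy 2.4.6 and, for figures, matplotlib 3.10.9). The procedure was tested on simulated data, and no result of that test is given here.

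The first fit took library sizes over all genes. Library sizes over the genes tested were chosen after its results had been seen, to process the counts as in an earlier analysis of these data, and the first fit is kept as an alternative. It called the same number of the 10 genes in each comparison. The 10 genes and the gene lists were chosen with earlier results of these data known.

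A gene of the 10 is given in full for a contrast where its unadjusted p by edgeR is under 0.05. List genes are named where called within a cell type, and for TAMs against CD8+ T cells in WT mice as the 3 largest differences per list and direction with a mean of at least 5. The most alike genes are the 3 with the highest r, for 4 pairs of gene and cell type picked when the analysis was planned. Alternatives were DESeq2 size factors, total molecules only, DESeq2's Wald test, filterByExpr, no filter, a robust fit, a replicate block, only the 12 libraries of a comparison, depth as a covariate, pseudocounts of 0.1 and 5, and leaving out each library. Leaving out the libraries with the fewest molecules and the library sizes over all genes were chosen after seeing the data. Marker lists covered macrophages, T cells, monocytes, neutrophils, dendritic cells, B cells, NK cells, regulatory or CD4 T cells, platelets, fibroblasts, endothelial cells, epithelial cells and nuclear RNA. No list but those given beside a result had an exact permutation p under 0.05 in a contrast within a cell type, with size factors over 36 libraries. The strand of the counts is not stated, and *Smad4* overlaps a gene on the other strand in GENCODE.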

Additional observations from a re-analysis of the deposited data

Results flagged for a closer look

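In 4 of 60 groups of 6 libraries, 1 library lay apart from the rest by Dixon's test at its 95% critical value, which takes the gap to the nearest library as a share of the range. Chance gives about 1 such group in 20. *Tgfbi* in *muMt*-/- CD8+ T cells was highest in replicate 1, at 94.1 against 18.3 in the next library (ratio 0.846), and this is the library with the most macrophage marker RNA. *Ski* in WT TAMs was lowest in replicate 1, at 35.8 against 44.3 (ratio 0.799). *Smad3* in *muMt*-/- CD8+ T cells was lowest in replicate 1, at 0 against 0.743 (ratio 0.663). *Skil* in GABA-treated CD8+ T cells was highest in replicate 6, at 17.3 against 7.63 (ratio 0.654).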

How the results depend on the processing

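How many of the 10 genes were called was computed for 11 comparisons. Of 273 counts under alternatives, 256 stayed equal or within 1.5 times. Between *muMt*-/- and WT TAMs the count of 1 became 0 with depth as a covariate, 2 with filterByExpr (8 of the 10 genes tested), no filter, the replicate block or only 12 libraries (*Skil* up, *Tgfbr2* down), and 3 with DESeq2's Wald test at an unadjusted p under 0.05, the study's criterion. That criterion also gave 2 for GABA-treated against untreated *muMt*-/- TAMs (1 with adjusted p), 1 for GABA-treated *muMt*-/- against WT TAMs, and 2 and 1 for the same 2 contrasts in CD8+ T cells. It gave 8 in place of 5 for TAMs against CD8+ T cells with GABA, and 1 in place of 0 for each test of the difference between cell types. The share of all genes that pass this criterion is not given here, so these counts are not set against a background. By edgeR, 14.9% of all genes had an unadjusted p under 0.05 between *muMt*-/- and WT TAMs. Without a filter the count was 1 for *muMt*-/- against WT and for GABA-treated *muMt*-/- against WT in CD8+ T cells, and 1 for the *muMt*-/- to WT difference between cell types, *Tgfbi* each time. The cause of these changes was not tested.

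Leaving out 1 library at a time gave 1 to 1 calls for *muMt*-/- against WT TAMs (log2 fold change of *Skil* 0.75 to 0.94, called in 12 of 12), 4 to 4, 5 to 5 and 5 to 6 for TAMs against CD8+ T cells in WT, *muMt*-/- and GABA-treated *muMt*-/- mice, and 0 to 0 for the other comparisons. Among 792 values of 34 named fold changes, 766 stayed on their side of the threshold, 1 lost its call (*Skil* with depth as a covariate), 25 gained one and 0 changed sign. Without the TAM libraries or the T cell libraries with the fewest molecules, an alternative chosen after seeing the data, the counts of calls did not change. Marker sums, scaled over 36 libraries, had an exact permutation p under 0.05 in 10 of 78 tests. With size factors over the 18 libraries of a cell type, also chosen after seeing the data, it was 12, the same 10 and, for *muMt*-/- against WT, macrophage markers in TAMs and monocyte markers in CD8+ T cells (0.50, exact permutation p = 0.0476).

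The replicate numbers are shared by the groups, and the labels do not state whether libraries with the same number are linked. Of 54 pairs with the same number, 6 correlated above 0.1 (range -0.18 to 0.28). In 9 of 54 the library was most like the one with its own number. Such correlations cannot decide whether libraries are linked, and the main fits treat all libraries as independent. With the replicate block the counts were 2 for *muMt*-/- against WT TAMs, 4, 5 and 5 for TAMs against CD8+ T cells and 0 elsewhere. The CD8+ T cell libraries were shallower than the TAM libraries, and their biological coefficient of variation was higher (0.294 against 0.195). The part of either in the number of calls was not tested.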
